A study of Caenorhabditis elegans with 18 samples.

Results

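Nematodes carrying the ire-1(ok799) deletion were compared with the wild type without any cold treatment, as the 3 ire-1 control libraries against the 3 wild-type (WT) control libraries of the first experiment in a series of 18 libraries. The comparison was chosen by the labels and not by any measured value, and it is described here across all genes. WT animals were strain N2 and mutants were strain CF2473, and all animals of both groups were whole Caenorhabditis elegans grown at 15 °C from the egg for 5 days and collected as adults of day 1. The series as a whole asks how ire-1 takes part in the response to 24 h at 2 °C, so the animals compared here give the difference between the strains before cold. RNA was extracted with Trizol, poly(A) RNA was selected, and libraries were made with the NEBNext Ultra II kit. The mutation is present in every cell, so nothing in this comparison separates neurons from gut, and fewer cells of a type cannot be told apart from less RNA per cell. The study's design text calls the replicates biological.

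IRE-1 is a kinase and endoribonuclease in the membrane of the endoplasmic reticulum (ER), the compartment in which secreted and membrane proteins fold. When unfolded proteins build up, it cuts the xbp-1 messenger so that a spliced form encodes a transcription factor for chaperones, disulfide isomerases and parts of the secretory pathway. PEK-1 and ATF-6 are the sensors of the other branches of this unfolded protein response. The worm intestine is the main organ of digestion, fat storage and yolk production, and most of its products pass through the ER.

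The 6 libraries held between 24139140 and 29518450 counts assigned to genes. Levels below are edgeR's CPM values, the reads of a gene relative to its library's total after scaling by trimmed-mean factors. They are not corrected for transcript length, so they are compared within a gene and not between genes. Of 46748 gene identifiers, 14344 had enough counts to be tested. Replicate 1 of both strains stood apart from the other 4 libraries. On the first principal component, which held 77.2% of the variance, replicate 1 of WT and of ire-1 lay at -135.8 and -129.9, and the other 4 libraries lay between 48.9 and 79.4. The 93 sperm markers summed to 2939 and 2864 CPM in those replicates and to between 182 and 260.2 CPM in the rest. The second component, with 12.2% of the variance, separated the strains, with the ire-1 libraries at -39.2 to -32.05 and the WT libraries at 11.01 to 55.1.

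Differences were tested with edgeR's quasi-likelihood test and are given as log2 differences, ire-1 minus WT, with their standard errors (SE). Both an unpaired and a paired fit are used throughout, and a gene is called where its adjusted p is under 0.05. The unpaired fit compares the 4 groups of the experiment, cold ones included, which share the estimate of the spread. The paired fit adds a term for the replicate number within each condition. Libraries with the same number deviated together in each pair, with correlations of 0.891, 0.606 and 0.712 for numbers 1, 2 and 3. For numbers 2 and 3 the swapped libraries deviated together slightly more, at 0.658 for WT 2 with ire-1 3 and 0.755 for WT 3 with ire-1 2. Only number 1 was matched by its own number alone, and the labels do not state a pairing. Below, a pair or partner means the library of the same number. A further fit adds to the paired one a correction for gene length, because the strain difference moved with length, as described at the end.

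Few genes passed the unpaired test, and most of those were lower in the mutant. In the unpaired fit, 9 of 14344 genes were called (0.0627%), of which 2 were higher in ire-1 (0.0139%) and 7 lower (0.0488%). In the paired fit 390 genes were called (2.72%), 89 of them higher (0.62%) and 301 lower (2.1%). The 9 genes of the unpaired fit are all among the 390. DESeq2, run without pairing, called 294 of 12095 genes (2.43%), the 9 among them. At an unadjusted p under 0.05, the unpaired fit held 404 genes higher (2.82%) and 1338 genes lower (9.33%). The libraries themselves showed the same tilt. All 3 ire-1 libraries lay below all 3 WT libraries in 1651 genes (11.5%) and above them in 597 (4.16%). Set against all 6 unchilled WT libraries, 3 of which come from the second experiment, the ire-1 libraries lay below every one in 793 genes (5.53%) and above every one in 169 (1.18%). Each experiment was scaled on its own, so CPM values are not on a common scale between experiments, here and below. The median log2 difference of all tested genes was -0.04. Scaling by relative log expression (RLE) in place of trimmed means moved that median to 0.12, and the unpaired fit then called 2 genes higher and 4 lower.

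The counts of called genes depended on single libraries. Leaving out WT replicate 3, which was the closest WT library to the mutant in many gut genes, gave 48 genes in the unpaired fit. Leaving out WT replicate 1 gave 4, leaving out WT replicate 2 or any 1 of the ire-1 replicates gave 2, and each cold library left out in turn gave 4 to 12. C38D9.2 and F15D4.5 were called each time, and dod-23 and pud-3 also without WT replicate 1. The paired fit called 30 genes without the pair of replicate 1, of which 19 were lower, and 132 without the pair of replicate 2 and 422 without that of replicate 3. Without the 4 sperm-rich libraries of the experiment it called 128 genes, 67 higher and 61 lower. Counts by list below come from all 6 libraries, with the count lacking replicate 1 beside the main ones. The shares of all tested genes to set beside them are 2.1% lower and 0.62% higher in the paired fit.

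The targeted gene was lower in the mutant libraries without being absent. The ire-1 gene lies on chromosome II at 8112243-8124910 on the reverse strand of the WBcel235 assembly. Its level was 92.9, 91.3 and 168 CPM in WT replicates 1 to 3 and 36.7, 53.9 and 53.1 CPM in the ire-1 replicates. Every ire-1 library lay below every WT library, the 3 of the second experiment included, which held 158, 137 and 199 CPM. The log2 difference was -1.29 (SE 0.26, adjusted p = 0.15 by edgeR), which was not called, and -1.25 in the paired fit (adjusted p = 0.0133), which was. Counts were deposited per gene, so reads inside and outside the deleted stretch are pooled and the remaining level does not measure intact messenger.

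Among 9 sensors and branch factors of the unfolded protein response, ire-1 was the only gene called, and that in the paired fit alone. The xbp-1 gene stood at 292, 161 and 123 CPM in WT and 252, 136 and 129 CPM in ire-1, and replicate 1 was the highest in both strains. The log2 difference of xbp-1 was -0.16 (SE 0.34) and turned to 0.03 under RLE scaling, and gene counts do not tell its spliced from its unspliced form. For hsp-3, which encodes a BiP chaperone of the ER, the levels were 984, 356 and 308 CPM in WT and 304, 216 and 221 CPM in ire-1. All ire-1 libraries were below all WT libraries in hsp-3, but the log2 difference of -1.15 (SE 0.41) was not called in the unpaired fit (adjusted p = 0.281) or in the paired one (adjusted p = 0.0598, edgeR). The other BiP gene, hsp-4, held 1159, 519 and 406 CPM in WT and 278, 453 and 432 CPM in ire-1. Its groups overlapped, and without the sperm-rich libraries its log2 difference turned from -0.84 to 0.03. The sensor genes of the other branches did not pass either, at 0.06 (SE 0.29) for pek-1 and 0.55 (SE 0.30) for atf-6.

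The list of 28 genes for ER chaperones and folding enzymes also holds ckb-2, which encodes neither. None of the 28 was called in the unpaired fit. In the paired fit 2 were lower (7.14%, against 2.1% of all tested genes), of which 1 was a folding enzyme gene. The list had a median log2 difference of -0.58 against -0.04 for all tested genes, with 23 members below 0, where 53.1% of all tested genes lay. WT replicate 1 held the highest summed level, 9838 CPM, against 4375 to 5825 CPM in the other 5 libraries. One of the 2 was pdi-6, a protein disulfide isomerase. It held 459.5, 149.8 and 145 CPM in WT and 69.8, 77.3 and 77.2 CPM in ire-1, with a paired log2 difference of -1.51 (adjusted p = 0.0401, edgeR). The mutant libraries were close together, and WT replicate 1 was far above the other WT libraries. The second was ckb-2, a choline kinase gene that is a known target of the response, at 115, 16 and 15.3 CPM in WT and 5.88, 3.5 and 4.13 CPM in ire-1. Every ire-1 library was below every WT library, WT replicate 1 again stood highest, and the paired log2 difference was -2.79 (adjusted p = 0.0122). After the length correction ckb-2 was the only gene of the list still called (adjusted p = 0.0295, edgeR). The isomerase pdi-6 was not (adjusted p = 0.0718). Of the 35 genes for ER-associated degradation and translocation, 1 was called lower in the paired fit (2.86%) and the median was -0.23.

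**Figure D1:**
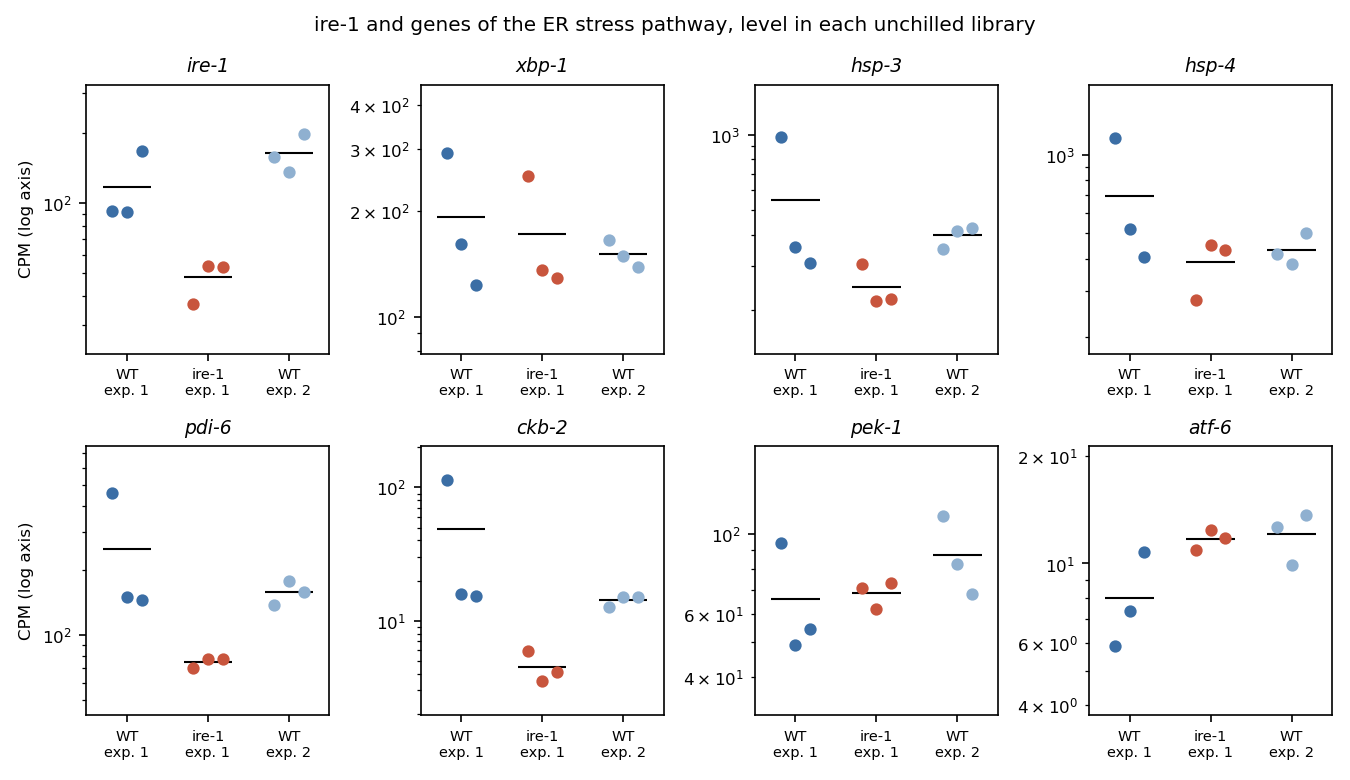
Levels of ire-1 and 7 genes of the ER stress pathway in CPM (log axis) in the 3 WT and 3 ire-1 control libraries of experiment 1 and the 3 WT control libraries of experiment 2; points are libraries and lines are means. The groups of experiment 1 are apart in ire-1, hsp-3, pdi-6, ckb-2 and atf-6 and overlap in xbp-1, hsp-4 and pek-1.

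The 2 genes called higher in the unpaired fit were nearly silent in WT and clearly expressed in the mutant. C38D9.2, a protein-coding gene on chromosome V (17567150-17571742, forward strand), held 0.469, 0.18 and 0.247 CPM in WT and 70.3, 119.2 and 68.6 CPM in ire-1. These levels rest on 4 to 11 reads per WT library and on 1795 to 3235 reads per ire-1 library. The log2 difference was 8.15 (SE 0.50, adjusted p = 1.07e-04 by edgeR). F15D4.5, a protein-coding gene on chromosome II (13245376-13247774, forward strand), held 0.554, 1.3 and 0.60 CPM in WT and 18.3, 35.1 and 20.9 CPM in ire-1. The log2 difference of F15D4.5 was 4.91 (SE 0.46, adjusted p = 0.00341). In the second experiment the WT libraries were as low as in the first, at 0.070, 0.247 and 0 CPM for C38D9.2 and 0.84, 0.494 and 0.496 CPM for F15D4.5. No role is given here for either gene.

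Genes next to this pair were also higher in the mutant, and these neighbours were named after their values were seen. C38D9.13 is a noncoding RNA gene that begins 1465 bases beyond C38D9.2 on the same strand. It had 0, 1 and 2 reads in the WT libraries and 41, 60 and 28 reads in the ire-1 libraries, and it was called in the paired fit (adjusted p = 0.00565, edgeR). Y6G8.5, a protein-coding gene 42.95 kb beyond C38D9.2 on the other strand, had 1, 0 and 0 reads in WT and 32, 22 and 26 in ire-1 (paired adjusted p = 0.0106). In the paired fit these were the only called genes among the 10 other tested genes within 50 kb of C38D9.2. F15D4.6 begins 1411 bases beyond F15D4.5 on the same strand and held 0.384, 0.54 and 0.247 CPM in WT and 1.84, 3.61 and 2.33 CPM in ire-1. Its paired log2 difference was 2.72 (adjusted p = 0.0121), and no other of the 10 other tested genes within 50 kb of F15D4.5 was called. Another group of neighbours was Y58A7A.3, Y58A7A.4 and Y58A7A.5, which lie side by side on chromosome V (5077854-5086969, reverse strand). Y58A7A.5 held 5.67, 1.49 and 1.48 CPM in WT and 19.4, 5.23 and 10.12 CPM in ire-1, and Y58A7A.4 held 0.256, 0.225 and 0.212 CPM and 5.05, 0.885 and 2.29 CPM. All 3 were called higher in the paired fit, with log2 differences of 1.38, 3.38 and 2.11. Within each pair of the same number the ire-1 library was the higher in all 3 genes. Of the 19 other tested genes within 50 kb of Y58A7A.4, those 2 neighbours were called higher, the glucuronosyltransferase gene ugt-63 was called lower (adjusted p = 0.0106), and the median unpaired log2 difference was -0.19. Whether reads of 1 transcript that runs on were counted for its neighbour was not tested.

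**Figure D2:**
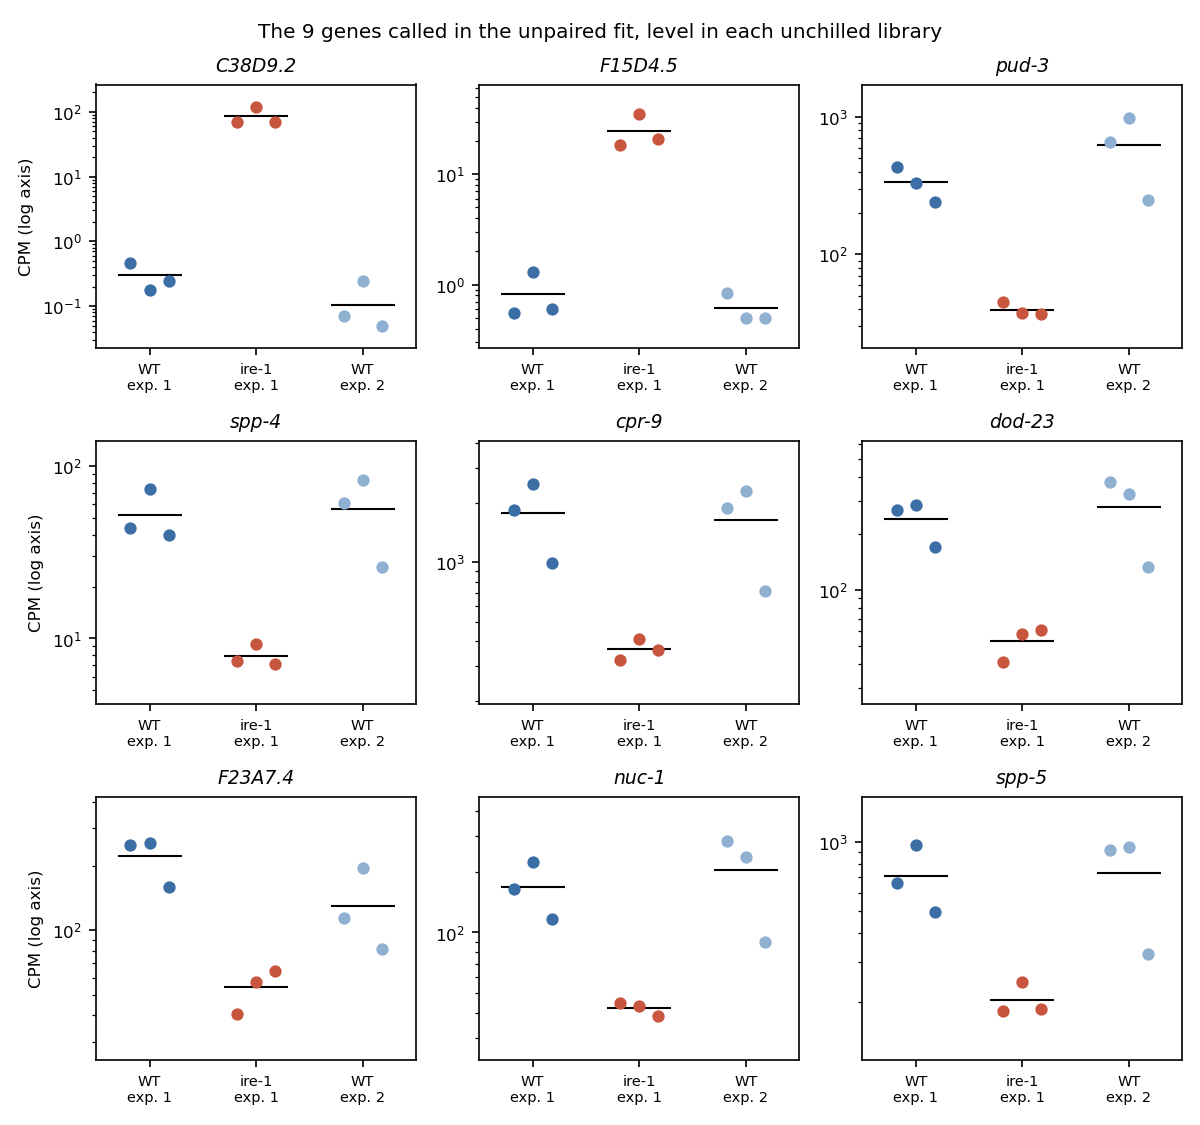
Level in CPM (log axis) of the 9 genes called in the unpaired fit, in each unchilled library; points are libraries, lines are means, and a library at 0 is drawn at 0.05. In all 9 genes the 3 ire-1 libraries lie outside the range of the 6 WT libraries, and in 6 of the 7 lower genes replicate 6 is the lowest WT library.

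The 7 genes lower in the mutant in the unpaired fit included digestive and secreted products of the gut. The largest fall of the 7 was in pud-3, whose protein is known to be more abundant when insulin signalling is low. It held 436, 328 and 240.3 CPM in WT and 44.7, 37 and 36.6 CPM in ire-1, a log2 difference of -3.08 (SE 0.38, adjusted p = 0.0238 by edgeR). The highest ire-1 library was far below the lowest WT library. The nuclease gene nuc-1, which encodes a DNase II that digests DNA of dead cells and food, held 164, 222 and 117 CPM in WT and 44.7, 43.2 and 38.8 CPM in ire-1. Its log2 difference was -1.99 (SE 0.25, adjusted p = 0.0238). The gene dod-23, listed among the outputs of the insulin pathway, held 266, 285 and 169 CPM in WT and 41.12, 57.9 and 61 CPM in ire-1. Its log2 difference was -2.17 (SE 0.25, adjusted p = 0.0187). F23A7.4, a short gene on the X chromosome (16212606-16212812), held 252, 257 and 159 CPM in WT and 40.7, 57.4 and 64.8 CPM in ire-1 (log2 difference -2.04, SE 0.27, adjusted p = 0.0323). Its neighbour F23A7.8, named after its values were seen, was lower in the paired fit at -1.64 (adjusted p = 0.0269). The other 3 of the 7 were cpr-9, spp-4 and spp-5, which belong to the families described next.

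Cathepsin B-like proteases, which digest protein in the gut and in lysosomes, were lower almost throughout. Of 7 tested cpr genes, 1 was called lower in the unpaired fit and 6 in the paired fit (85.7%, against 2.1% of all tested genes). All 7 were below 0, with a median log2 difference of -2.1. The gene called in both fits was cpr-9, at 1828, 2480.3 and 990.3 CPM in WT and 320, 410.3 and 362 CPM in ire-1 (log2 difference -2.28, SE 0.30, adjusted p = 0.0323 by edgeR). For cpr-1 the levels were 619, 1659.7 and 411 CPM in WT and 129, 169.6 and 111 CPM in ire-1, with a paired log2 difference of -2.48 (adjusted p = 0.0133). In both genes the WT libraries spread widely, replicate 2 being the highest and replicate 3 the lowest, while the ire-1 libraries were close together. In 6 of the 7 cpr genes every ire-1 library was below all 6 unchilled WT libraries, which held in 5.53% of all tested genes. Without the pair of replicate 1 the paired fit called 1 of the 7, and the median was -1.95. The cpr family was picked out after the values were seen, and it is part of the wider list of aspartyl and cysteine proteases.

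In that wider list 13 of 21 tested genes were lower in the paired fit (61.9%, against 2.1% of all tested genes). None was higher, and the median log2 difference was -1.2. Aspartyl proteases made up 5 of the 13, among them asp-1, the major one of the intestine, at 3394, 4250.3 and 1612 CPM in WT and 1476, 1063 and 890.1 CPM in ire-1 (paired log2 difference -1.35, adjusted p = 0.0227, edgeR). The cathepsin Z gene cpz-1 was lower as well, at 593, 552 and 395 CPM in WT and 233, 210.2 and 226 CPM in ire-1 (paired adjusted p = 0.0171). Summed over the 28 genes of the list, the level was 15254, 21957 and 8971 CPM in WT and 5799, 5943 and 4993 CPM in ire-1. The WT libraries of the second experiment summed to 18906, 21010 and 6904 CPM, and replicate 6 was the WT library nearest to the mutant. Without the pair of replicate 1 the paired fit called 1 of the 21. After the length correction 3 of the 13 remained called, cpr-1, cpr-6 and cpr-9.

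Saposin-like proteins, small proteins of the gut that bind or open membranes and include antimicrobial members, followed the proteases. All 19 tested spp genes were below 0, with a median log2 difference of -1.42. In the unpaired fit 2 were lower and in the paired fit 6 (31.6%, against 2.1% of all tested genes). spp-4 held 43.6, 73.4 and 39.7 CPM in WT and 7.44, 9.33 and 7.07 CPM in ire-1 (log2 difference -2.72, SE 0.39, adjusted p = 0.0455 by edgeR). spp-5, an antimicrobial saposin, held 663, 967 and 497 CPM in WT and 183, 246 and 188 CPM in ire-1 (log2 difference -1.79, SE 0.26, adjusted p = 0.0455). spp-17 held 265, 495 and 250.4 CPM in WT and 52.2, 140.3 and 132 CPM in ire-1, with a paired log2 difference of -1.69 (adjusted p = 0.00998). In all of these the strains did not overlap. Without the pair of replicate 1, 2 spp genes were called in the paired fit. In the paired fit with length correction spp-3, spp-4, spp-5 and spp-17 were called. The median of the spp genes was then -0.74, against 0.11 for all tested genes.

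Other defence genes of the gut held called genes in smaller numbers. Of 50 tested lysozyme and antimicrobial peptide genes, the spp genes included, 9 were lower in the paired fit (18%, against 2.1% of all tested genes). None was higher, and the median was -0.79. In the paired fit with length correction 5 of the list were called lower and the median was -0.34. The invertebrate lysozyme gene ilys-5 held 1019, 1349 and 742 CPM in WT and 336, 276 and 266 CPM in ire-1 (paired log2 difference -1.79, adjusted p = 0.00558, edgeR). The 9 classical lysozyme genes of the lys family were all below 0, with a median of -0.54, and none was called. Both tested thaumatin genes were lower in the paired fit, with log2 differences of -2.87 for thn-1 and -2.12 for thn-2. Neither was called with the length correction. Among 95 C-type lectins, sugar-binding proteins that are often secreted, 4 were lower (4.21%) and 1 higher (1.05%), within a few points of the 2.1% and 0.62% of all tested genes. The lectin gene clec-150 fell from 208, 268 and 154 CPM in WT to 57, 78.5 and 61.9 CPM in ire-1 in the paired fit (log2 difference -1.65, adjusted p = 0.0056). In the list of infection and intracellular pathogen response genes, 1 of 36 was called, irg-2, which was higher (paired log2 difference 1.3, adjusted p = 0.0279).

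Outputs of the insulin pathway are genes whose activity depends on the DAF-2 receptor and the DAF-16 factor. In the paired fit 10 of 28 tested members were lower (35.7%, against 2.1% of all tested genes). None was higher, and the median was -1.16. The list holds genes that rise and genes that fall under low insulin signalling. Without the pair of replicate 1, 4 of the 28 were called. Besides pud-3, dod-23 and nuc-1, the list holds pud-4, at 92.1, 86.7 and 41 CPM in WT and 9.83, 5.79 and 7.3 CPM in ire-1 (paired log2 difference -3.21, adjusted p = 7.31e-04, edgeR). It also holds sod-3, a mitochondrial superoxide dismutase and a standard readout of DAF-16. Its levels were low, 5.88, 0.99 and 0.952 CPM in WT and 0.306, 0.0737 and 0.153 CPM in ire-1, with a paired log2 difference of -3.63 (adjusted p = 0.0142). WT replicate 1 was the highest library in sod-3, and the mutant libraries were below all 6 WT libraries.

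Yolk genes were lower in the mutant in every library. Vitellogenins are yolk proteins made in the intestine and carried to the oocytes, and each of the 6 tested vit genes was below 0, with a median log2 difference of -1.08. In all 6 genes the 3 ire-1 libraries were below all 6 unchilled WT libraries, which held in 5.53% of all tested genes. For vit-4 the levels were 2807, 4313 and 2712 CPM in WT and 1239, 1443 and 1309.8 CPM in ire-1 (paired log2 difference -1.27, adjusted p = 0.0355, edgeR), and for vit-3 4504, 6577 and 3994 CPM and 2016, 2247 and 2164 CPM (paired log2 difference -1.2, adjusted p = 0.0365). These were the 2 called in the paired fit (33.3%, against 2.1% of all tested genes). None of the 6 was called in that fit without the pair of replicate 1. With the length correction vit-1, vit-3, vit-4 and vit-5 were called and the median was -1.37. The vit genes are near-identical in part, so reads can be shared between them or dropped, and the split within the family is uncertain. Summed over the 6 genes, the level was 72861, 109600 and 63897 CPM in WT and 45779, 50520 and 43259 CPM in ire-1. The gene dsc-4, which encodes a subunit of the protein that loads lipid onto yolk particles, held 120.1, 57.6 and 37.9 CPM in WT and 21, 25.5 and 16 CPM in ire-1 (paired log2 difference -1.64, adjusted p = 0.0161).

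Enzymes that shorten fatty acids in peroxisomes were lower in part, and no gene for fatty acid synthesis was called. Peroxisomal beta-oxidation in worms also trims the side chains of ascaroside pheromones. Of its 22 tested genes, 8 were lower in the paired fit (36.4%, against 2.1% of all tested genes). None was higher, and the median was -0.96. The thiolase gene daf-22 held 85.5, 127 and 56.7 CPM in WT and 25.4, 31.4 and 25.6 CPM in ire-1 (paired log2 difference -1.64, adjusted p = 0.0078, edgeR). The hydratase gene maoc-1 held 58.9, 82.8 and 59.7 CPM in WT and 20.7, 25 and 23.9 CPM in ire-1 (paired log2 difference -1.52, adjusted p = 0.0056). The dehydrogenase gene dhs-28 and the oxidase genes acox-1.1 and acox-3 were lower too, at -1.27, -1.03 and -1.22. In daf-22 and dhs-28 the ire-1 libraries were below all 3 WT libraries of experiment 1, whereas WT replicate 6 of experiment 2, at 29.1 and 41.7 CPM, was no higher than the highest mutant library. The length correction left 6 of the 8 called, and without the pair of replicate 1 the paired fit called 1. Of 30 genes of mitochondrial beta-oxidation, 1 was lower in the paired fit, with a median of -0.25. None of 19 genes for fatty acid synthesis and its regulators was called in either fit, and their median was 0.25. In the paired fit with length correction that median was -0.03.

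Of the 3 delta-9 desaturases, which put the first double bond into fatty acids and are known for adjusting membrane fluidity in the cold, 1 was called. fat-7 held 188, 85.3 and 78 CPM in WT and 67, 46.1 and 30.8 CPM in ire-1, and the strains did not overlap, though the WT libraries of experiment 2, at 72.4, 59.2 and 64.4 CPM, reached into the mutant range. Its log2 difference was -1.29 (SE 0.40, adjusted p = 0.234) in the unpaired fit and -1.24 in the paired fit (adjusted p = 0.0248, edgeR), where it was called. It was no longer called with the length correction (adjusted p = 0.0532). fat-5 held 50.6, 20.7 and 30.9 CPM in WT and 13.3, 20.6 and 9.66 CPM in ire-1, and fat-6 held 913, 329.6 and 208 CPM and 555, 189 and 203 CPM. Neither was called in either fit, with log2 differences of -1.23 (SE 0.44) and -0.61 (SE 0.64). Without WT replicate 1 the sign of fat-6 turned to 0.30. The elongase elo-6 was the other called member among 19 desaturases and elongases (paired log2 difference -1.44, adjusted p = 0.0365), whose median was -0.59. All 9 tested lipid-binding lbp genes were below 0 and lbp-6 was called (paired log2 difference -0.99, adjusted p = 0.0224). The strains overlapped in elo-6. Neither elo-6 nor lbp-6 was called with the length correction (adjusted p = 0.097 and 0.135, edgeR). The median of the lbp genes was -0.99 in the unpaired fit and -0.41 in the paired fit with that correction. Of the lysosomal lipases, lipl-5 was called lower, at 162, 433 and 151 CPM in WT and 46.2, 102 and 55.8 CPM in ire-1 (paired adjusted p = 0.0056). The lipid droplet gene dhs-3 held 101, 72 and 78.9 CPM in WT and 34.4, 35.2 and 31.4 CPM in ire-1 (paired adjusted p = 0.0205), the only called one of 18 genes for triglyceride synthesis and lipid droplets.

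**Figure D3:**
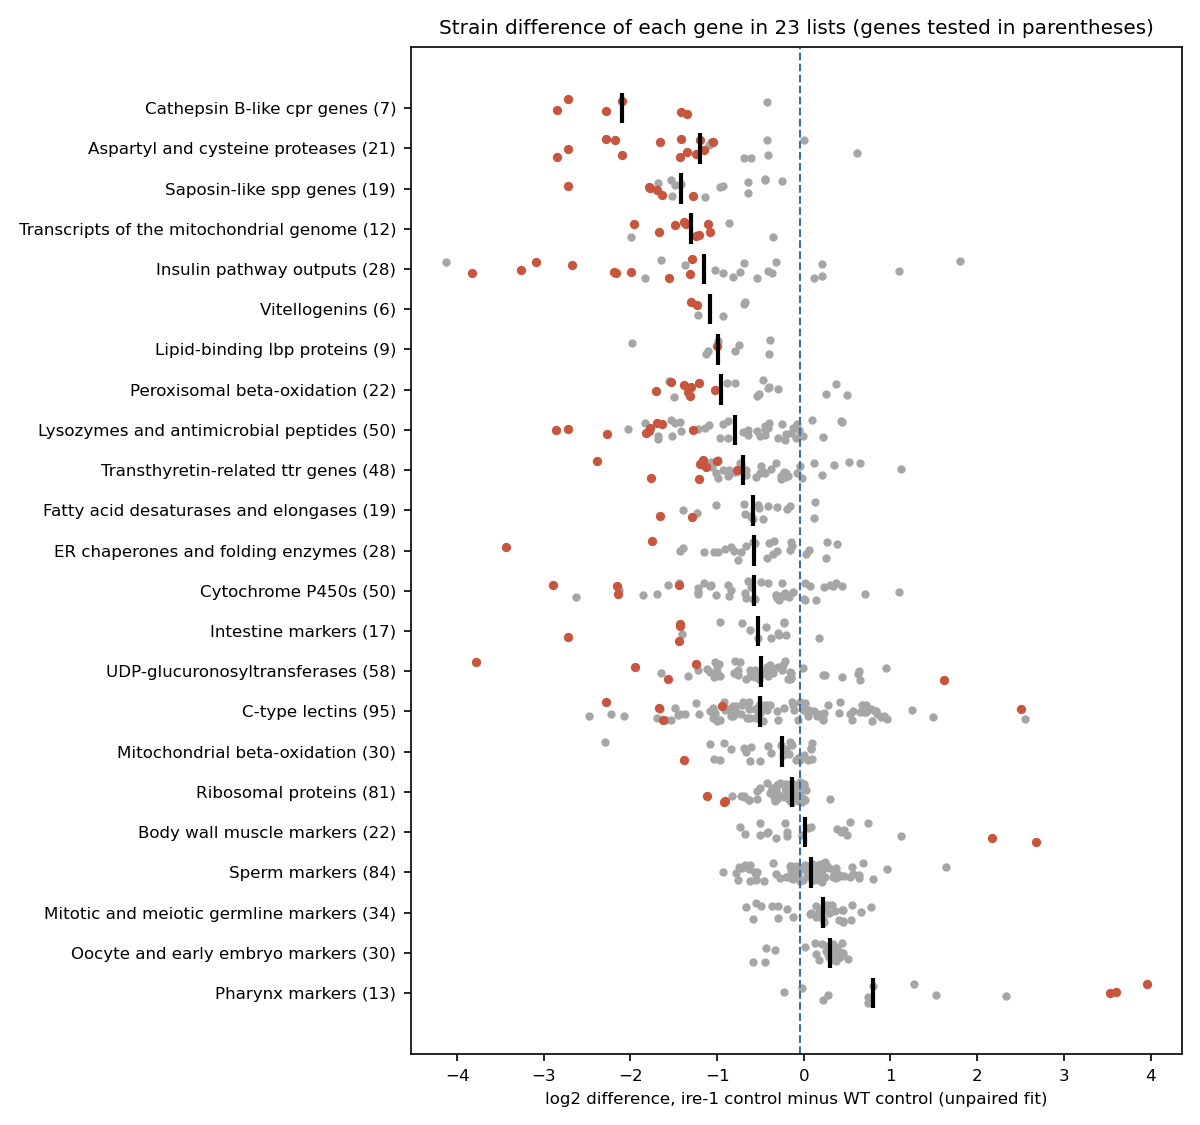
Log2 difference between the strains (ire-1 control minus WT control, unpaired fit) of each tested gene in 23 lists; red points are genes called in the paired fit, grey points are the others, black bars are list medians and the dashed line is the median of all tested genes. The cpr and spp genes have the lowest medians, -2.1 and -1.42, and the sperm, germline and oocyte markers hold no called gene. In the paired fit with length correction the cpr and spp medians are -1.81 and -0.74.

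Detoxifying enzymes were lower in part. Of 50 cytochrome P450 genes 4 were lower in the paired fit (8%, against 2.1% of all tested genes) and none higher, with a median of -0.57. Among them was cyp-25A1, at 23.7, 26.7 and 42.3 CPM in WT and 2.88, 9.88 and 8.1 CPM in ire-1 (paired log2 difference -2.28, adjusted p = 0.0269, edgeR). Of 58 UDP-glucuronosyltransferases, which attach sugars to small molecules, 4 were lower (6.9%) and 1 higher (1.72%), with a median of -0.49. The higher one was ugt-4, at 5.63, 2.61 and 2.5 CPM in WT and 17.1, 7.0 and 8.75 CPM in ire-1 (paired adjusted p = 0.0392). Of 50 genes for glutathione transferases and oxidative stress, 4 were lower (8%) and none higher, and 37 were below 0. The glutathione transferase gst-38 stood above 0, at 6.52, 1.89 and 1.55 CPM in WT and 8.7, 30.3 and 13.9 CPM in ire-1, and was not called (paired adjusted p = 0.0611). The catalase ctl-2, a peroxisomal enzyme that breaks down hydrogen peroxide, was lower (paired log2 difference -1.24, adjusted p = 0.0376). Metal-handling genes had 2 of 22 lower (9.09%), cdr-6 and the copper chaperone cuc-1, with paired log2 differences of -0.96 and -1.23. After the length correction 2 P450 genes, 3 glucuronosyltransferases and 1 gene of the glutathione list were called lower. No metal-handling gene was called then.

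Further genes, named after their values were seen, encode single enzymes. The glucosylceramidase gene gba-4 held 59.6, 64.8 and 53.5 CPM in WT and 8.45, 20.8 and 10.8 CPM in ire-1, and its paired log2 difference was -2.25 (adjusted p = 0.0056, edgeR). The acid phosphatase gene pho-11 held 464, 259.6 and 173 CPM in WT and 123, 70 and 48 CPM in ire-1 (paired log2 difference -1.89, adjusted p = 3.03e-04). Within each pair of the same number, pho-11 fell by a similar factor although its level differed between the pairs. The lysosomal mannosidase gene aman-1 held 6.99, 4.37 and 7.51 CPM in WT and 1.5, 0.958 and 1.3 CPM in ire-1 (paired log2 difference -2.31, adjusted p = 0.00558). F09C8.1 had one of the widest falls, from 39, 65.5 and 26.5 CPM in WT to 1.9, 6.3 and 1.68 CPM in ire-1 (paired log2 difference -3.89, adjusted p = 0.0121).

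Of the 17 intestine markers 4 were called lower (23.5%, against 2.1% of all tested genes), all in the paired fit, and 13 were not called. In this list 16 of 17 tested members were below 0, and the median log2 difference was -0.53. The esterase gene ges-1, a classic marker of gut cells, held 35.6, 37.3 and 18.4 CPM in WT and 11.6, 13.4 and 8.82 CPM in ire-1 (paired log2 difference -1.39, adjusted p = 0.0401, edgeR). Summed over the list, the level was 5993, 7176 and 3006 CPM in WT and 2833, 2294 and 1867 CPM in ire-1, with no marker at 0 in any library. Every ire-1 sum was below every WT sum of experiment 1, while WT replicate 6 of experiment 2 stood at 2469 CPM, within the mutant range. The list shares asp-1 and cpr-1 with the protease list. Without the pair of replicate 1 none of the 17 was called and the median was -0.25. The part of this shift in the lower gut genes was not tested.

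Transcripts of the mitochondrial genome were lower as a group, a group chosen after its values were seen. Of 12 tested protein-coding genes on MtDNA, 9 were lower in the paired fit (75%, against 2.1% of all tested genes). The median log2 difference was -1.3. Their levels summed to 24675, 16825 and 9605 CPM in WT and 8824, 8288 and 7363 CPM in ire-1. WT replicate 3 lay closer to the mutant libraries than to the other WT libraries. Without the pair of replicate 1 none of the 12 was called, and with the length correction 2 were. Of 36 nuclear genes of the respiratory chain 1 was called, and their median was -0.26. These RNAs were read from libraries selected for poly(A).

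Genes higher in the mutant were fewer, and the muscle and pharynx genes among them stood highest in ire-1 replicate 1. In the paired fit 3 of 13 tested pharynx markers (23.1%) and 2 of 22 body wall muscle markers (9.09%) were higher. The share of all tested genes was 0.62%. The muscle list itself was evenly split, with 11 members below 0, 11 above and a median log2 difference of 0.008. Its levels summed to 15158, 7328 and 3072 CPM in WT and 14702, 4823 and 4907 CPM in ire-1. The pharyngeal myosin gene myo-2 held 2.22, 0.99 and 0.917 CPM in WT and 56.4, 1.92 and 5.88 CPM in ire-1, and the giant muscle protein gene unc-22 held 42.8, 11.1 and 12.73 CPM and 351, 27.2 and 46.5 CPM. In both genes ire-1 replicate 1 was far above every other library, while replicates 2 and 3 were above their WT partners by smaller amounts. Pharynx markers summed to 195 CPM in ire-1 replicate 1 and to between 21.5 and 39 CPM in the other 5 libraries. The paired adjusted p values of myo-2 and unc-22 were 0.0439 and 0.00932 by edgeR, and neither was called with the length correction (adjusted p = 0.102 and 0.0844). The moulting gene mlt-11 was higher in all 3 mutant libraries, at 0.938, 1.62 and 1.02 CPM in WT and 3.22, 4.05 and 9.36 CPM in ire-1 (paired adjusted p = 0.0335). All 9 tested genes for cohesin, which holds sister chromatids together, and its loader were above 0, with a median of 0.39. The group was chosen after its values were seen. In the paired fit with length correction its median was 0.23, against 0.11 for all tested genes. In this list scc-1 and scc-2 were called higher in the paired fit, with log2 differences of 0.74 and 0.86, and neither was called after the length correction.

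Lists of the nervous system held called genes at about the share of all tested genes, of which 2.1% were lower and 0.62% higher in the paired fit. Of 27 neuron markers 1 was called lower (3.7%), the octopamine-making enzyme tbh-1, at 234, 464 and 439.7 CPM in WT and 132, 288 and 239 CPM in ire-1 (paired log2 difference -0.80, adjusted p = 0.0464, edgeR). Each mutant library was below its WT partner although the groups overlapped. Of 107 neuropeptide and insulin-like peptide genes 3 were lower (2.8%), among them nlp-36 and nlp-40, the latter released from the gut, with paired log2 differences of -1.05 and -1.01. None of these 3 was called after the length correction. The receptor gene pdfr-1, which receives a neuropeptide of locomotion and foraging, was higher, at 5.54, 3.96 and 4.9 CPM in WT and 10.4, 12.9 and 10.3 CPM in ire-1 (paired log2 difference 1.22, adjusted p = 0.036; 0.0816 with the length correction). The mechanosensory channel gene trp-4, named after its values were seen, was lower in all 3 mutant libraries, at 1.02, 2.43 and 2.36 CPM in WT and 0.0919, 0.295 and 0.229 CPM in ire-1 (paired log2 difference -3.23, adjusted p = 0.00558).

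The markers of the germline held no called gene. No sperm marker of 84, no oocyte and early embryo marker of 30 and no mitotic or meiotic germline marker of 34 was called in either fit. Their median log2 differences were 0.08, 0.30 and 0.23. For sperm markers the median was 0.73 in the paired fit. Oocyte markers summed to 6524 CPM in WT replicate 1 and to between 14323 and 25592 CPM in the other 5 libraries. None of 33 proteasome genes, 62 solute carriers, 44 genes of glycosylation and Golgi secretion or 169 nuclear hormone receptors was called. No gene was called in a list of 22 heat shock protein genes. Set against the 2.1% of all tested genes that were lower in the paired fit, other lists held more or fewer. Of 81 ribosomal protein genes 3 were lower (3.7%), with a median of -0.14 that turned to 0.01 under RLE scaling. Of 48 transthyretin-related genes 8 were lower (16.7%), with a median of -0.70. In the paired fit with length correction, the ribosomal and transthyretin-related medians were 0.35 and 0.02, against 0.11 for all tested genes. Cuticle collagens, with 3 of 129 lower (2.33%) and 1 higher, were near the share of all tested genes. F-box and MATH/BTB proteins had 1 of 202 lower (0.495%) and 3 higher (1.49%, against 0.62% of all tested genes). Methionine cycle and phosphatidylcholine genes had 2 of 24 lower (8.33%), among them ckb-2, which is also in the list of ER chaperones and folding enzymes. No hypodermis marker of 14 and no embryo marker of 6 was called.

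The strain difference moved with the length of the gene. The median log2 difference of the 615 tested genes with at most 400 bases of exon was -0.48, and it was higher in each longer class, up to 0.47 for the 374 genes above 5000 bases. Genes called lower in the paired fit had a median exon length of 766.5 bases and those called higher 1953.5 bases, against 1366 bases for all. In each pair of the same number the WT library held more of the short genes and the ire-1 library more of the long ones. For genes of 401 to 700 bases the median deviation from the mean of the 6 libraries was 0.51, 0.13 and -0.12 in WT replicates 1 to 3 and -0.05, -0.29 and -0.25 in the ire-1 replicates. After cold the same strain comparison showed little such trend, from -0.05 to 0.13 over the 8 classes. When each library's trend on length was taken out, a step chosen after the trend had been seen, the paired fit called 123 genes (0.858%), 41 higher (0.286%) and 82 lower (0.572%), and the median of all genes moved to 0.11. Of the 123 genes, 111 were among the 390 called without the correction. The correction was not complete, since the shortest class was left at a median of 0.36. The ttr genes, short secreted proteins (2 of 8 still called), and the ribosomal proteins (0 of 3) lost most of their calls, whereas pud-3, nuc-1, dod-23, cpr-9, ire-1 and the genes C38D9.2 and F15D4.5 were called either way.

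**Figure D4:**
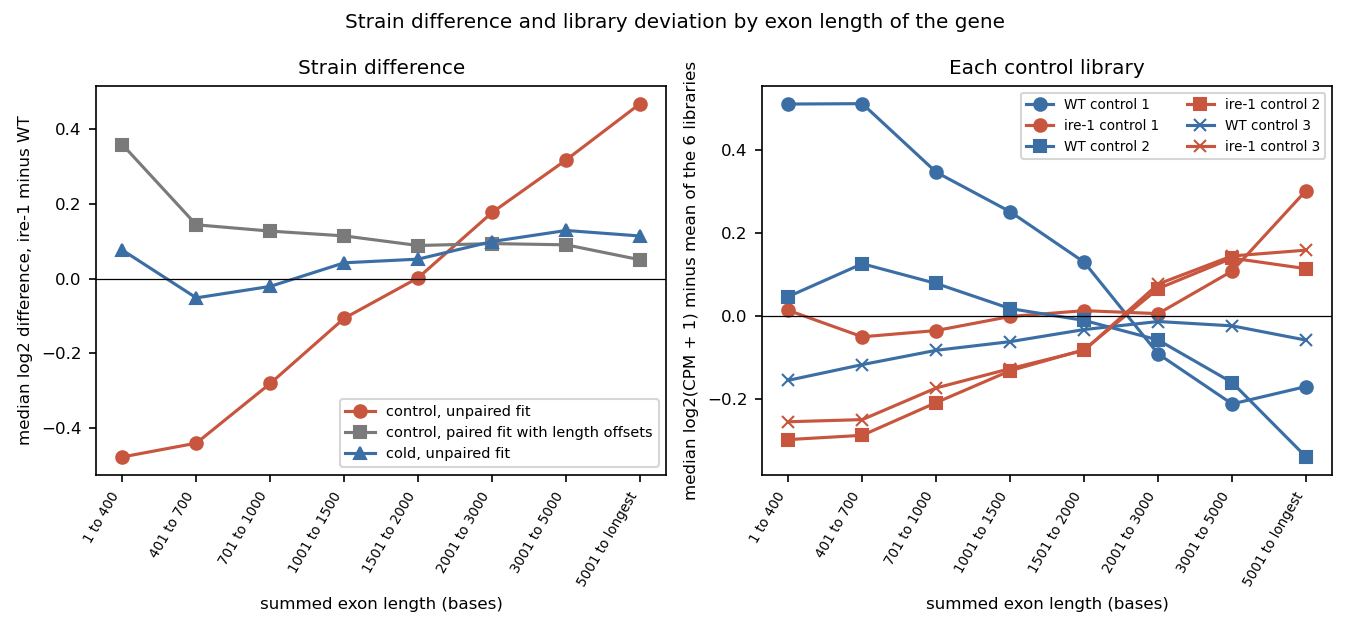
Left, median log2 difference between the strains over 8 classes of summed exon length (bases), in the control, in the control after length correction and after cold. Right, median deviation of each control library from the mean of the 6, on the log2(CPM + 1) scale; the control line climbs from -0.48 to 0.47 and the cold line stays between -0.05 and 0.13.

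Called genes lay on every chromosome. In the paired fit the called share was 3.89% of tested genes on X and 3.47% on V and lay between 2.03% and 2.3% on the other 4 nuclear chromosomes. Around ire-1 itself there was no excess, with 8 of 393 tested genes called within 1 Mb (2.04%).

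The cold-treated libraries of the same experiment hold the strain comparison a second time in other animals, and most of the called genes lay on the same side of 0 there. Of the 301 genes lower in the paired control fit, 281 were below 0 after cold (93.4%), against 43.5% of all tested genes. Of the 89 higher genes 86 were above 0 after cold, against 56.5% of all tested genes. The median of the lower genes was -1.27 in the control and -0.63 after cold. These genes were chosen by passing the test in the control, a choice that by itself favours larger values there than after cold, so the sizes are not compared. After cold the unpaired fit called 2 genes (0.0139%), C38D9.2 and F15D4.5, whose log2 differences there were 6.93 and 3.85. Medians over whole lists, called or not, are given side by side. The 7 cpr genes had a median of -2.1 in the control and -0.52 after cold, while the 3 pud genes had -3.08 and -2.16. Both families were singled out after their control values were seen, so the same caution about sizes holds for them. The cpr genes are also part of the protease list. The 21 aspartyl and cysteine proteases had -1.2 and -0.04, and the intestine markers -0.53 and 0.22. In the protease list the WT libraries after cold summed to 4705, 5494 and 6196 CPM, in the range of the unchilled mutant libraries or close to it, and the ire-1 libraries after cold to 5862, 5722 and 4374 CPM. For ire-1 the log2 difference was -1.29 in the control and -1.89 after cold. No gene had a called difference between control and cold by edgeR's interaction test, in which 197 genes had an unadjusted p under 0.05 (1.37%). DESeq2 called 1 gene, so these contrasts in size are descriptions.

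**Figure D5:**
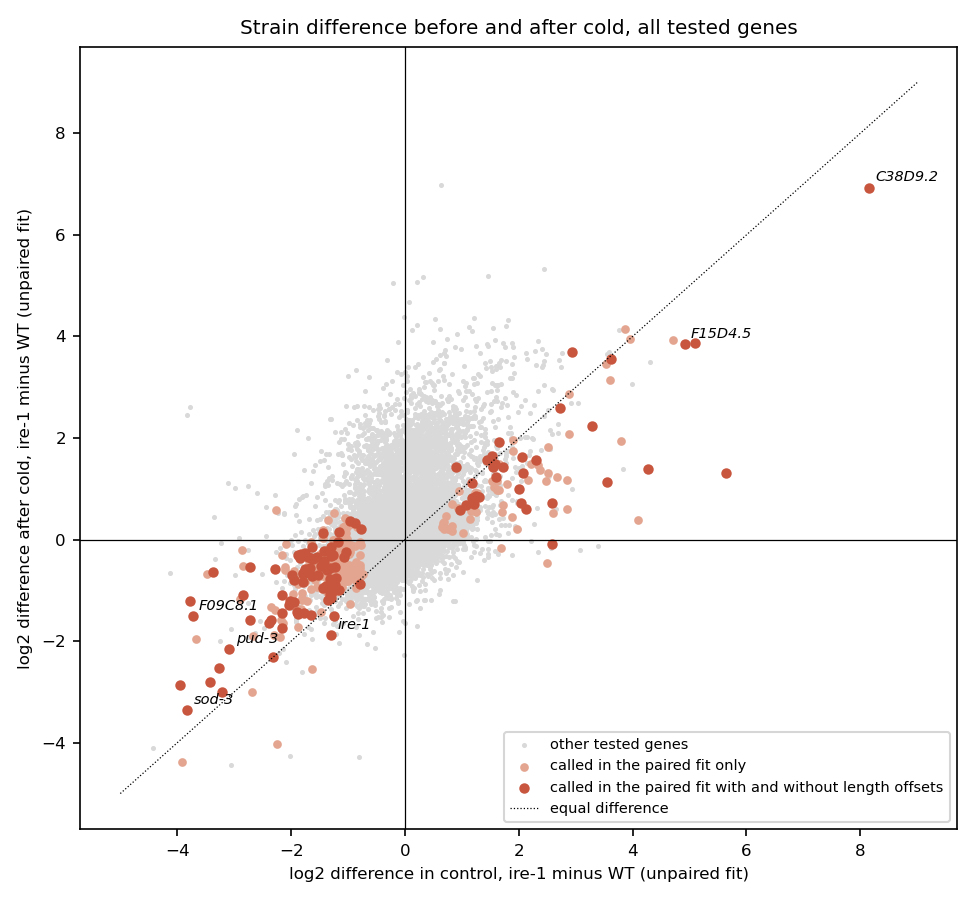
Log2 difference between the strains in the control (horizontal) and after cold (vertical) for all tested genes, both from the unpaired fit, with genes called in the paired control fits in colour. Of the 301 lower genes 281 lie below 0 after cold, with a median of -0.63 there against -1.27 in the control; the dotted line marks equal difference.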

How the data were processed

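Gene-level read counts deposited by the authors, for 46748 identifiers in 18 libraries, were the starting point. Per the submitters' processing notes, bcl2fastq, STAR 2.5.0a and HTSeq were used with the WBcel235 genome. The strand setting, annotation release and shared-read rule were not given in the sources used here. Of the identifiers, 3055 had no symbol in the reference table and held 1.42% of the counts.

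Counts were scaled by trimmed means and tested with edgeR 4.0.16 (R 4.3.3) by its quasi-likelihood test with Benjamini-Hochberg adjustment over the 14344 genes that passed filterByExpr (minimum count 10, minimum total 15). The unpaired model had 4 groups, 12 libraries and 8 residual degrees of freedom, with a common biological coefficient of variation of 0.62, which limits what 3 libraries a group can detect. Standard errors are the log2 difference divided by the root of F. The paired model adds a term for each number within each condition. Same-numbered libraries correlated, in their deviations from group means, at 0.891, 0.606 and 0.712 in the control and at 0.646, 0.810 and 0.339 after cold. In the control WT 2 with ire-1 3 and WT 3 with ire-1 2 correlated higher, at 0.658 and 0.755. After cold WT 3 with ire-1 1 did so too, at 0.349. Paired values stand beside the unpaired ones. The labels do not state such a pairing, and for numbers 2 and 3 the control data do not favour it over the swapped one. Length corrections took out each library's loess trend (span 0.5) on exon length, known for 99.3% of tested genes. The control libraries of this experiment held 24139140 to 29518450 counts each. Alternatives used DESeq2 1.42.0, limma 3.58.1 (voom), other scalings, other sets of libraries, no filter, the summed sperm level as a covariate and each library left out. The code was tested on simulated data.

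Named genes were the pathway genes fixed by name, then the called genes of at least 10 CPM without overlap, up to 15 in each direction, filled by smallest p, and up to 4 genes per list by smallest p. Others, named after their values were seen, are the neighbours of C38D9.2, F15D4.5 and F23A7.4, the Y58A7A genes, ugt-63, irg-2, spp-17, thn-1, thn-2, acox-1.1, dsc-4, gba-4, pho-11, aman-1, F09C8.1, trp-4, scc-1 and scc-2. Members and lists were chosen with earlier results of these data known. The families cpr, spp, lys, thn, pud, cohesin and the mitochondrial transcripts were singled out after their values were seen.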

Additional observations from a re-analysis of the deposited data

How the results depend on the processing

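The 9 genes of the unpaired fit (2 higher, 7 lower) became 1 (1 higher, 0 lower) with the 2 control groups alone, 3 (all higher, 0 lower) without the 4 sperm-rich libraries, 47 (14 and 33) with all 18 libraries and a term for the experiment, 294 (85 and 209) with DESeq2 and 1448 (432 and 1016) with the sperm level as a covariate. The 7 lower genes became 4 under RLE scaling and 4 under the length correction alone. Leaving out 1 library at a time gave 2 to 48 genes, 2 to 4 of them higher and 0 to 44 lower. With the replicate block the counts were 390 (89 and 301), with the block in the control groups alone 164 (31 and 133), and with block and length correction 123 (41 and 82). With the block and without the sperm-rich libraries they were 128 (67 and 61), and without replicate 1, 2 or 3 of both strains 30 (11 and 19), 132 (37 and 95) and 422 (134 and 288).

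The 2 genes called after cold became 6 without the sperm-rich libraries, 5 with all libraries, 47 with DESeq2, 25 with the sperm covariate, 22 with the block, 16 with block and length, 19 with the block and no sperm-rich libraries, 25, 90 and 25 with the block and no control replicate 1, 2 or 3 of both strains, and 1 to 3 with 1 library left out. The interaction count of 0 became 1 with DESeq2, 2 with the block and no sperm-rich libraries, and 1 with the block and no control replicate 2. The cause of these changes was not tested.

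C38D9.2 was called under every alternative, and F15D4.5 under every one but the 2 control groups alone. The sign of xbp-1 turned to 0.032 under RLE scaling and DESeq2, 0.012 with all libraries, 0.013 without the filter and 0.00028 with the block and no sperm-rich libraries, and it ran from -0.40 to 0.35 with 1 library left out. For hsp-4 it turned to 0.032 without the sperm-rich libraries, 0.037 with the block as well, and 0.023 with the block and no replicate 1. For pek-1 it turned to -0.20 and -0.14 with the length correction, unpaired and paired, and to -0.045 with the block and no replicate 3, and it ran from -0.061 to 0.47 with 1 library left out. For fat-6 it ran from -1.04 to 0.30, the latter without WT control replicate 1. Length corrections and the paired fits with libraries left out were chosen after seeing the data.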

Other observations

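The second experiment holds the response of WT animals to 24 h at 2 °C in libraries that the strain comparison does not use, and genes that differed between the unchilled strains tended to lie on the same side there. Of the 82 genes lower in the mutant in the paired fit with length correction, 81 were tested in that experiment, and 75 were below 0 in WT cold minus WT control (92.6%, against 48.5% of all 11282 genes tested), with a median log2 difference of -1.09. Of the 41 higher genes 33 were tested and 28 were above 0 (84.8%, against 51.5%), with a median of 1.15. All 7 lower genes of the unpaired fit were below 0 in the chilled WT animals, with a median of -1.09. Few single genes passed edgeR's test there, 48 in all, of which 2 were among the 82 and 5 among the 41. C38D9.2 was not tested in that experiment because of its low counts, and its WT libraries held 1, 3 and 0 reads in the control.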
